A study of Mus musculus with 95 samples.

Results

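The genes described here are those that encode the protein components of the cytosolic ribosome, together with the copies that carry their names. They were found by symbol, as Rpl or Rps followed by a digit, or Rplp0 to Rplp2, leaving out the Rps6k kinases. A gene was kept where its CPM, the count scaled to a common library total, reached 1 in at least 10 libraries. Of 177 matching genes, 123 were kept, out of 15839 kept genes among the 20638 in the table. The kept members were 37 genes with -ps in the symbol, the mark of a named pseudogene, and 86 others. The low-count filter removed 51 of the 88 genes named -ps and 3 of the 89 others. One of the 86, Rps19bp1, encodes a protein that binds a ribosomal protein and matched by its letters alone.

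The 95 libraries were made from poly(A) RNA of islets, the endocrine tissue of the pancreas. The animals were Diversity Outbred founder strain mice, all on a high-fat, high-sugar diet with 45% fat. The labels used here give no strain, sex or age for a library and do not say whether each library came from its own animal. No groups were therefore compared and no test was made, and each value below describes libraries by the number that opens their title. Those numbers run from 1 to 100, with 5 absent, and were read in 8 sets. The sets were libraries 1 to 8 with 34 to 39 (14 libraries), 9 to 16 with 40 to 48 (16), 17 to 24 with 49 to 58 (18) and 25 to 32 with 59 to 65 (14). The others were 66 to 75 (9 libraries), 76 to 85 (10), 86 to 90 (4) and 91 to 100 (10).

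A ribosome is built from a large and a small subunit, and each cell needs their proteins in matched amounts. In mammals each of these proteins usually comes from a single intron-containing gene, whose short and very abundant mRNA is read back into the genome by retrotransposons more often than most. The resulting processed pseudogenes are intronless, lie anywhere in the genome and may differ from the parent mRNA by a few bases or by none. A short read from the parent mRNA can then fit several places equally well, and the counting method decides where it goes. Islet beta cells translate large amounts of insulin and carry a correspondingly large translation machinery.

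Library totals ran from 16411809 to 34357253 counts. The endocrine hormone list, which holds the insulin, glucagon and somatostatin genes among 8, took between 6.82% and 26.6% of counts. A list of 18 acinar enzyme genes of the exocrine pancreas took between 0.269% and 42.9%. Of all entries in the count table, 67.7% were whole numbers within 1e-06, and the rest were fractions. Values of members with near-identical copies are uncertain one by one, because the counting could split their reads. In such bulk RNA, fewer cells of a type and less RNA per cell cannot be told apart.

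The reference sequences show how close the copies are. Each kept copy was aligned to the transcripts of its parent gene in GENCODE M21 (GRCm38). Of the 37 genes named -ps, 14 matched the parent base for base over alignments of 213 to 750 bases. The other 23 differed at 1 base or more. Pairs of 60-base stretches of coding sequence are given for copies whose libraries fell into separate high and low levels. Of these copies 5 differ from the parent, with the differing bases in capitals, and 1 does not. Each stretch was chosen to hold the most differences within 1 exon of the parent. The first pair is Rps3a2 at chr14:88123141-88123200 (minus strand) and Rps3a1, which encodes small subunit protein eS1, in exon 5 at chr3:86138488-86138547 (minus strand).
Rps3a2: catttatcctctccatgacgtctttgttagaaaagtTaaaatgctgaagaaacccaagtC
Rps3a1: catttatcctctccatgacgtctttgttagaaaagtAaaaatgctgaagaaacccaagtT
The second pair is Rpl9-ps6 at chr19:32466234-32466293 (minus strand) and exon 5 of Rpl9, for large subunit protein uL6, at chr5:65389551-65389610 (minus strand).
Rpl9-ps6: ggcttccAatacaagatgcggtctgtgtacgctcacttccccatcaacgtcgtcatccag
Rpl9: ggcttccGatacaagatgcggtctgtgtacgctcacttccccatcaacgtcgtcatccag
The third pair is Rpl19-ps11 at chr8:19493067-19493126 (plus strand) and exon 3 of Rpl19, for large subunit protein eL19, at chr11:98028365-98028424 (plus strand).
Rpl19-ps11: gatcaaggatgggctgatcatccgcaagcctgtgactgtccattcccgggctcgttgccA
Rpl19: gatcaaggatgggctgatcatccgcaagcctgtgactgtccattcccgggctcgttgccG
The fourth pair is Rps25-ps1 at chr6:145266403-145266462 (plus strand) and exon 2 of Rps25, for small subunit protein eS25, at chr9:44407988-44408047 (plus strand).
Rps25-ps1: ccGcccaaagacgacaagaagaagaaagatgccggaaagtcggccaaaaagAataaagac
Rps25: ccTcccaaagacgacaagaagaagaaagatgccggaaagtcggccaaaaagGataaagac
The fifth pair is Rps15-ps2 at chr6:58017680-58017739 (plus strand) and exon 3 of Rps15, for small subunit protein uS19, at chr10:80293727-80293786 (plus strand).
Rps15-ps2: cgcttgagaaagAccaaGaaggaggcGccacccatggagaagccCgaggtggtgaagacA
Rps15: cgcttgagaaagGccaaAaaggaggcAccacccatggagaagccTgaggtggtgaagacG
The sixth pair has no difference, and joins Rps6-ps4 at chr2:75191757-75191816 (minus strand) with exon 2 of Rps6, for small subunit protein eS6, at chr4:86856800-86856859 (minus strand).
Rps6-ps4: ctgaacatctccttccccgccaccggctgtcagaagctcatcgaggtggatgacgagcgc
Rps6: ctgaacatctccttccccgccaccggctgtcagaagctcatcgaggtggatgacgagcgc
Over the whole alignment Rpl9-ps6 and Rpl19-ps11 each differed from the parent at 1 base, Rps3a2 and Rps25-ps1 at 4, Rps15-ps2 at 10, and Rps6-ps4 at 0 of 750.

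Cut into 31-base words, the transcripts of the genes named -ps held a median of 2.63% of words found in no other gene, against 55.4% for the 76 genes of the large and small subunits. In 16 of the 37 no word was unique, and in 27 fewer than 10% were. Of the 76 subunit genes, 1 fell below 10% and none lacked a unique word.

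Named pseudogenes had wider ranges between libraries than the other members. The spread of a gene was taken as the distance between the 10th and 90th percentiles of its log2 CPM, after TMM scaling, which balances library composition. Its median was 2.35 log2 units, a 5.12-fold range, over the 37 genes named -ps, and 0.82 log2 units, or 1.77-fold, over the 86 others. Over all 15839 kept genes it was 0.92. The biological coefficient of variation, the spread of a gene beyond counting error, was above 50% in 24 of the 37 named -ps and 11 of the 86 others, beside 24.3% of all kept genes.

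Levels were called separated where an empty stretch of at least 1 log2 unit left 5 or more libraries on each side. By this description 20 of the 37 genes named -ps (54.1%) and 7 of the 86 others (8.14%) were separated, beside 3.07% of all kept genes (486 of 15839). The 7 others were Rpl7, Rpl9, Rpl19, Rpl27, Rpl29, Rps3a1 and Rps3a2, the last of which GENCODE lists as a processed pseudogene. Among the genes named -ps, 9 of the 14 identical to their parent were separated, and 11 of the 23 with a difference. The passing of the low-count filter itself selects some copies that are high in a few libraries, so these shares describe the kept members and not all copies. Without the filter 20 of 88 genes named -ps and 8 of 89 others were separated, beside 2.70% of all genes. The median range was then 1.78 log2 units for genes named -ps and 0.84 for the others.

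**Figure D1:**
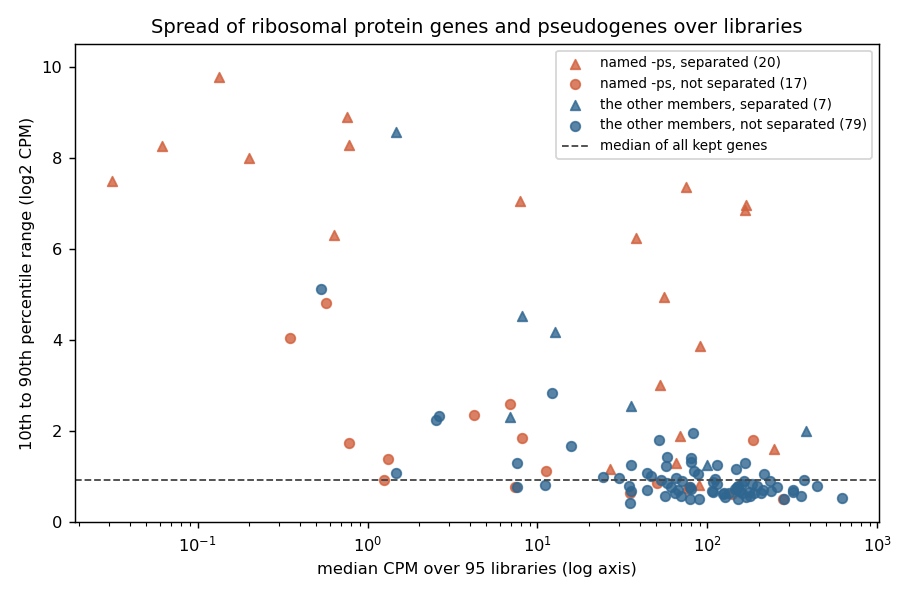
Each point is a kept member, with its median CPM over 95 libraries on a log axis and its 10th to 90th percentile range in log2 CPM on the vertical axis. Genes named -ps (orange) reach 9.77 log2 units, triangles mark separated levels, and the dashed line is the median of all kept genes at 0.92.

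The separated levels followed the title numbers. In 18 of the 27 separated members, 13 named -ps and 5 others, each of the 8 sets of libraries lay wholly on one side of the empty stretch. Libraries 66 to 75 alone were low for Rpl19-ps11, Rpl27-ps3, Rpl31-ps8 and Rpl36a-ps2, and alone high for Rpl27. Libraries 1 to 8 and 34 to 39 alone were low for Rpl9-ps6 and Rps3a1, and alone high for Rps15-ps2, Rpl9 and Rps3a2. Libraries 9 to 16 and 40 to 48 alone were high for Rps15a-ps7. The others of the 18 were split by combinations of sets. The same count was not made over the 486 separated genes among all kept genes, so it is not shown to be particular to the members. The sets had already been used to name other parts of the series from these data. Some of the 13, such as Rps15-ps2 with 1 CPM reached in 14 libraries, passed the filter through the set where they were high.

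**Figure D2:**
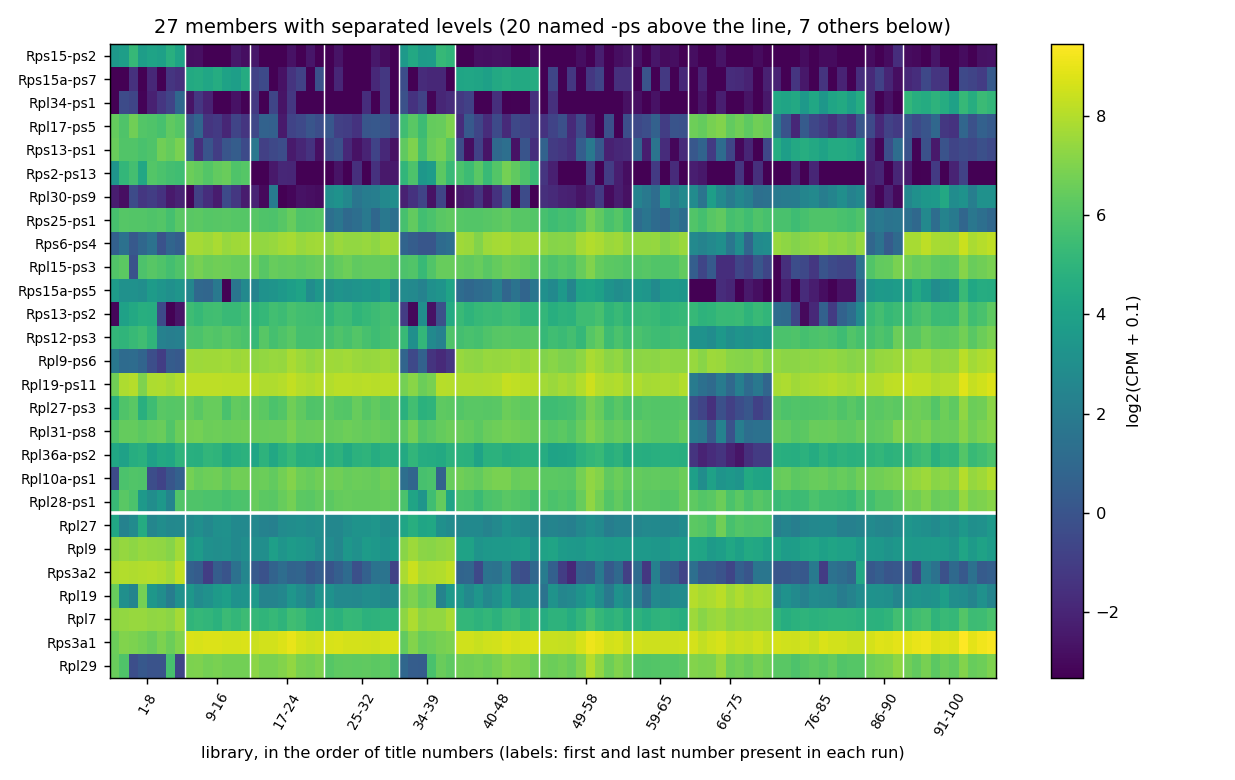
Colour gives log2(CPM + 0.1) of the 27 separated members, a row each, in 95 libraries ordered by title number. White vertical lines part the runs of numbers, and the thick line parts 20 genes named -ps above from 7 others below. Blocks of one colour begin and end at the run lines in most rows.

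Several copies and their parents mirrored each other. Rps3a2 ran from 209 to 342 CPM with a median of 249 in libraries 1 to 8 and 34 to 39, and from 0.176 to 20.2 with a median of 1.34 CPM in the other 81. Its parent Rps3a1 ran from 82.1 to 135 CPM (median 113) in the same 14, against 308 to 701 CPM (median 395) in the other 81. Neither gene's levels overlapped between those libraries. The sum of both had medians of 365 CPM in the 14 and 396 CPM in the 81, with ranges of 305 to 477 and 309 to 702 CPM that overlapped widely. The highest Rps3a2 value outside the 14, 20.2 CPM, lay in libraries 76 to 85.

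Rpl9-ps6, which GENCODE lists as protein coding, showed the reverse in the same libraries. It held 0.188 to 3.34 CPM (median 1.15) in libraries 1 to 8 and 34 to 39, and 122 to 284 CPM (median 171) in the other 81. Rpl9 itself held 142 to 208 CPM (median 162) in those 14 and only 5.78 to 21.3 CPM (median 12.5) in the rest. In 81 of 95 libraries, then, the copy held more counts than Rpl9. Whether those counts came from RNA of the copy or of Rpl9 was not tested. Summed over Rpl9 and its named copies the medians were 222 and 233 CPM in the 14 and the 81.

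Libraries 66 to 75 set apart the largest number of copies. Rpl19-ps11 had 1.72 to 4.49 CPM (median 2.55) in these 9 libraries and 95.1 to 472 CPM (median 251) in the other 86. Rpl19 had 196 to 277 CPM (median 223) in the 9 and 2.17 to 127 CPM (median 7.67) in the 86. The highest of the 86, 127 CPM, was in libraries 1 to 8 and 34 to 39, where Rpl19 lay on both sides of its empty stretch, with 6 of 14 libraries on the upper side. Rpl19 and its named copies summed to medians of 227 CPM in the 9 libraries and 261 CPM in the others.

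Rpl27-ps3, a copy of the gene of large subunit protein eL27, did the same. It had 0.240 to 0.962 CPM in libraries 66 to 75, against 24.8 to 161 CPM in the others, with medians of 0.710 and 71.5 CPM. Rpl27 had 52.4 to 101 CPM in libraries 66 to 75 and 4.14 to 26.0 CPM in the others, with medians of 60.1 and 6.63 CPM. The sums overlapped, with medians of 60.6 CPM in libraries 66 to 75 and 78.6 CPM in the others.

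For Rpl31-ps8 the parent held many counts in all libraries, and the most where the copy was low. Rpl31-ps8 had 0.844 to 5.01 CPM in libraries 66 to 75 and 61.4 to 142 CPM in the others. Rpl31, for large subunit protein eL31, had 132 to 175 CPM in libraries 66 to 75 and 46.5 to 103 CPM in the others. Their family summed to medians of 150.2 CPM in libraries 66 to 75 and 154 CPM in the others. Rpl36a-ps2 had at most 0.363 CPM in libraries 66 to 75 and at least 15.8 CPM in the others, while Rpl36a had medians of 44.9 and 33.5 CPM and its levels overlapped.

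Rps6-ps4 and Rps25-ps1 joined several sets. Rps6 encodes the small subunit protein that S6 kinases phosphorylate, and its copy is identical to it over 750 bases. Rps6-ps4 had 0.816 to 8.16 CPM in the 27 libraries numbered 1 to 8, 34 to 39, 66 to 75 and 86 to 90, against 131 to 342 CPM in the other 68. Rps6 had a median of 298 CPM in the 27 and 191 CPM in the 68, with ranges of 252 to 474 and 151 to 367 CPM that overlapped. Their sum kept a difference in medians, 304 CPM in the 27 libraries and 373 CPM in the 68, also with overlap.

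Rps25-ps1 was low in the 28 libraries numbered 25 to 32, 59 to 65, 86 to 90 and 91 to 100. It had 1.76 to 6.33 CPM there and 44.9 to 109 CPM in the other 67. Rps25 had 123 to 245 CPM (median 156.5) in the 28 libraries and 52.4 to 127 CPM (median 70.96) in the 67. The sums had medians of 159.8 and 137 CPM.

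**Figure D3:**
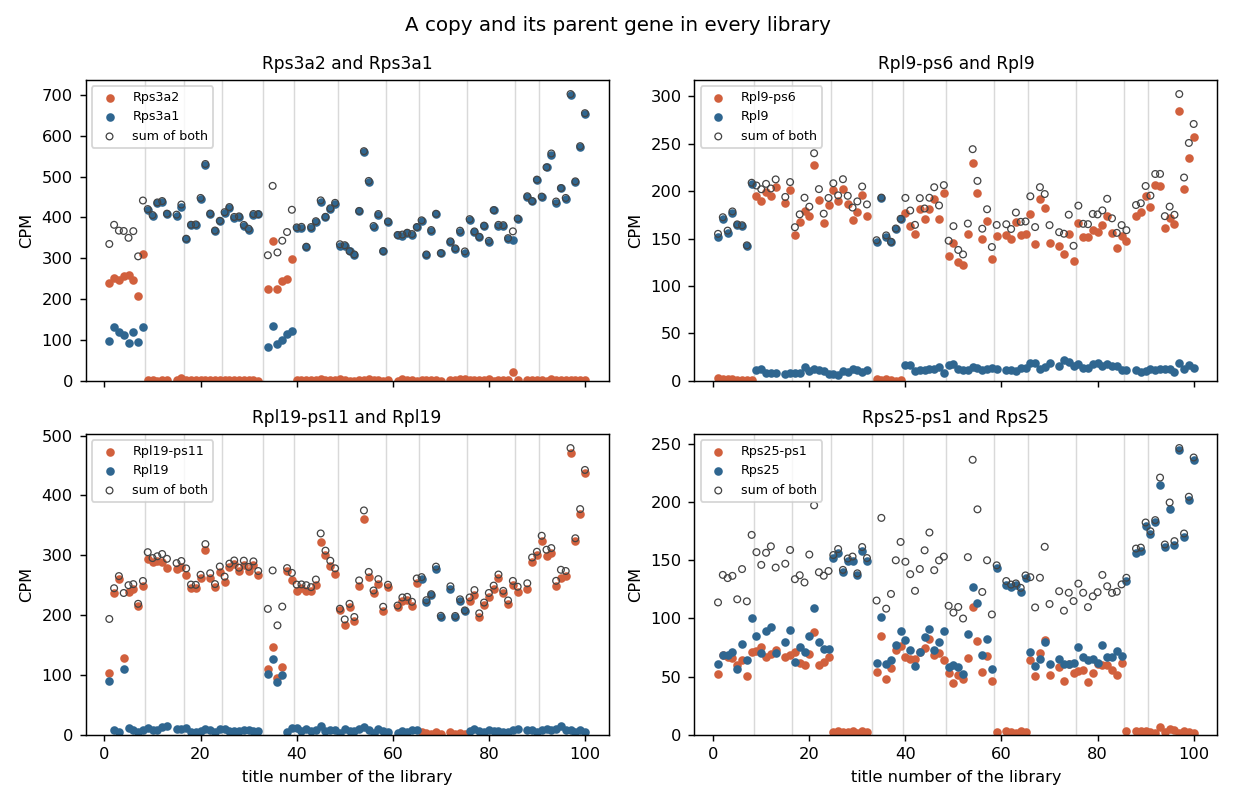
Each panel plots CPM on a linear axis against the title number of the library for a copy (orange), its parent gene (blue) and the sum of both (open circles). Where the copy drops towards 0 the parent is high or the reverse, and the sums overlap between the runs that the grey lines part.

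For other separated copies the levels of the parent overlapped between the sets. Rps15-ps2 had 11.6 to 38.1 CPM in libraries 1 to 8 and 34 to 39 and at most 0.218 CPM in the other 81. Rps15 had medians of 112 CPM in the 14 and 167 CPM in the 81, with ranges of 81.3 to 145 and 118 to 382 CPM. Rps15a-ps7 had 14.3 to 24.3 CPM in libraries 9 to 16 and 40 to 48 and at most 1.14 CPM in the other 79. Rps15a, for small subunit protein uS8, overlapped between them, with medians of 114 and 106 CPM. Rpl34-ps1 had 10.7 to 42.4 CPM in libraries 76 to 85 and 91 to 100 and at most 1.86 CPM in the other 75, while Rpl34 overlapped with medians of 133 and 126 CPM. Rps2-ps13, on the X chromosome, had 10.1 to 109 CPM (median 58.6) in the 30 libraries of the sets 1 to 8 with 34 to 39 and 9 to 16 with 40 to 48. It had at most 0.473 CPM in the other 65, and Rps2 overlapped with medians of 182 CPM in the 30 and 215 CPM in the 65.

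The 2 kept copies of Rps13, for small subunit protein uS15, were mostly high in different libraries. Both were on their upper side in 6 of the 14 libraries 1 to 8 and 34 to 39, and in 1 of the 10 libraries 76 to 85. Rps13-ps1 had 51.0 to 125 CPM in libraries 1 to 8 and 34 to 39, 13.5 to 24.6 CPM in libraries 76 to 85 and at most 3.52 CPM in the other 71. Rps13-ps2, identical to the parent over 453 bases, was low in 8 of the 14 and 9 of the 10 libraries of those sets, with medians of 0.722 CPM in libraries 1 to 8 and 34 to 39 and 1.47 CPM in libraries 76 to 85. Its set medians elsewhere lay between 37.0 and 48.7 CPM. Rps13 itself had 6.397 to 33.2 CPM in libraries 1 to 8 and 34 to 39, below its 62.5 to 156 CPM in every other library. The whole family summed to between 88.6 and 236 CPM.

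Rpl17-ps5 and Rpl17-ps8 are copies of Rpl17, for large subunit protein uL22, which itself had a median of only 2.62 CPM. Rpl17-ps5 had 43.5 to 129.7 CPM in libraries 1 to 8, 34 to 39 and 66 to 75 and at most 3.04 CPM in the other 72. Rpl17-ps8 had set medians of 91.8 CPM in libraries 1 to 8 and 34 to 39 and 60.9 CPM in libraries 66 to 75, and of 170.5 to 260.04 CPM in the other sets. The family summed to medians of 174 CPM in those 23 libraries and 206 CPM in the 72.

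In 9 separated members at least 1 set lay on both sides. Rpl10a-ps1, Rpl28-ps1 and Rpl29 were low in 8, 7 and 8 libraries, all of them within libraries 1 to 8 and 34 to 39. Within those 14 Rpl10a-ps1 reached 88.3 CPM, and Rpl29, for large subunit protein eL29, ran from 0.539 to 91.8 CPM. Rpl10a-ps1 was intermediate in libraries 66 to 75, at 7.55 to 21.5 CPM. The low libraries were not the same for both: library 1 was low for Rpl10a-ps1 at 0.660 CPM and high for Rpl29 at 91.8 CPM, and library 3 was low for Rpl29 at 0.754 CPM and high for Rpl10a-ps1 at 64.3 CPM. Rpl15-ps3 was low throughout libraries 66 to 75 and 76 to 85 and in library 3. Rps12-ps3 was low in libraries 66 to 75 and in 6 of the 14 libraries of the first set. Rps15a-ps5 was low in libraries 66 to 75, in 9 of the 10 libraries 76 to 85 and in library 13. Rpl30-ps9, on the X chromosome, was high throughout libraries 25 to 32 with 59 to 65, 66 to 75, 76 to 85 and 91 to 100, with set medians of 4.45 to 8.69 CPM, and in library 19.

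No sum of a parent and its copies was separated. For 32 parents with at least 1 kept copy, the sum of parent and named copies had a median range of 0.67 log2 units, beside 0.92 for the parents alone and 1.85 for the summed copies. The sum was narrower than the parent in 27 of 32. Of these parents 4 were separated alone, and 0 of 32 sums were.

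Further copies carried other names. Outside the symbol rule, 92 genes had at least 50% of their words in a member, mostly genes with Gm symbols, and 40 were kept. Of those 40, 25 (62.5%) were separated, with a median range of 4.09 log2 units. In a step added after the data were seen, each of the 76 subunit genes was summed with the genes, whatever their names, that had at least 50% of their words in it. Alone, 6 of the 76 were separated and 25 had a range above 1 log2 unit, whereas in the sums 0 were separated and 2 ranges stayed above 1. Among the 52 with such a kept gene the median range was 0.70 log2 units summed and 0.94 alone, and among the 24 with none it was 0.70. Those 24 include Rps15, Rps19, Rpl37 and Rps4x, whose kept copies Rps15-ps2, Rps19-ps3, Rpl37rt and Rps4l shared fewer words than that and were not added, nor was Rpl36a-ps3 to Rpl36a.

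**Figure D4:**
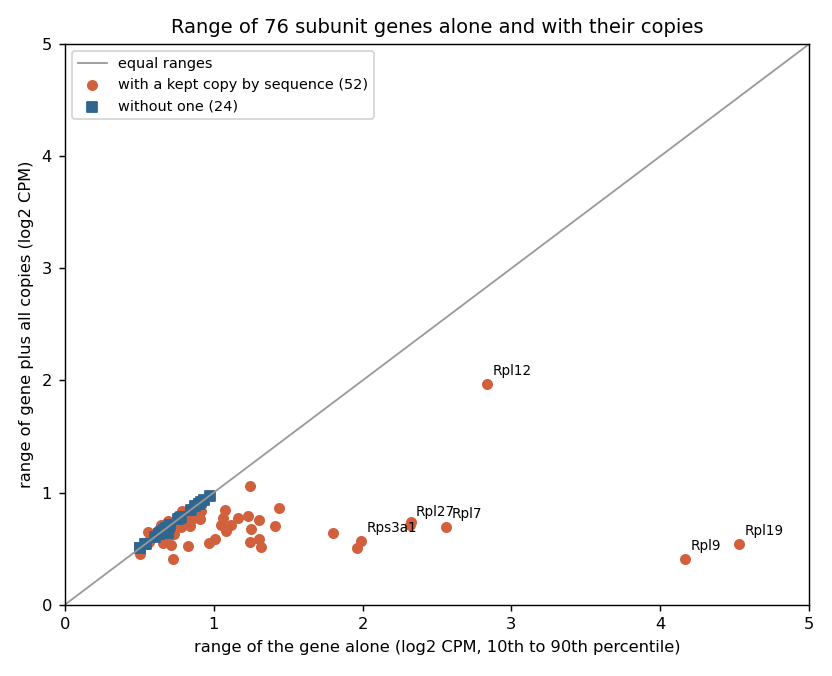
Each point is 1 of 76 subunit genes, with the range of the gene alone on the horizontal axis and the range after adding every gene with at least 50% of its words in it on the vertical axis, both in log2 CPM between the 10th and 90th percentiles. Of 52 genes with such a copy 44 lie below the line of equal ranges, Rpl19 with 0.54 summed and 4.53 alone, and Rpl12 stays widest at 1.97.

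Rpl7, Rpl12 and Rpl29 had their partners among these unnamed genes. Rpl7, for large subunit protein uL30, had 148 to 236 CPM in libraries 1 to 8, 34 to 39 and 66 to 75 and 24.2 to 65.3 CPM in the other 72. Gm12174, a processed pseudogene on chromosome 11, had set medians of 46.3 and 44.7 CPM in these 2 sets and 227 to 319.6 CPM in the other sets. Together with its copies by this measure Rpl7 ranged over 0.70 log2 units. Rpl29 and its 3 unnamed copies ranged over 0.68 log2 units, and Gm10709 reached 88.2 CPM within libraries 1 to 8 and 34 to 39 and at most 1.24 CPM elsewhere.

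Rpl12, for large subunit protein uL11, was the exception. It had set medians of 52.4 CPM in libraries 9 to 16 and 40 to 48 and 79.2 CPM in libraries 66 to 75, and of 9.08 to 15.8 CPM in the other sets. Its copy Gm10275 had set medians of 14.2 CPM and 78.2 CPM in these, and of 146 to 277 CPM in the others. In libraries 9 to 16 and 40 to 48 both were below the set medians of Gm10275 elsewhere, and the sum of Rpl12 and Gm10275 still ranged over 1.97 log2 units, from 52.0 to 469 CPM. The cause of the lower sum there was not tested.

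For some proteins the copy took nearly all counts in every library. The median of the sum was at least 10 times that of the gene alone in 7 of the 76 and at least 2 times in 23. A ratio of medians does not cover every library, as Rpl9 and Rpl19 are among the 7 and reached 208 and 277 CPM alone. Rpl35, for large subunit protein uL29, had a median of 1.46 CPM and its sum 94.4 CPM, of which Gm2000 held 92.9 CPM. Rpl5, which carries 5S ribosomal RNA to the large subunit, had a median of 7.59 CPM and its sum 312 CPM, of which Gm15500 held 297 CPM. Neither copy was separated, and the parent symbols were low in all libraries.

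Levels between genes are compared per kilobase of merged exon. The merged length covers the exons of all annotated transcripts of a gene, 4043 bases for Rpl18 for example, so ranks depend on the annotation too. Among the members not named -ps, Rplp1, of the acidic stalk that binds elongation factors, was highest at 741 CPM per kilobase (median). Rps3a1 followed at 389, Rpl4 at 309.9, Rplp0 at 265.3 and Rps15 at 261 CPM per kilobase. Of the genes named -ps, Rpl39-ps at 515 and Rpl19-ps11 at 419 CPM per kilobase lay above Rps3a1. Rpl8 and Rpl36 stood at 209 and 208 CPM per kilobase and Rps4x, the X-linked gene of small subunit protein eS4, at 194. The 4 lowest of the other members were Rpl35 at 1.18, Rps12l1 at 1.33, Rps3a2 at 1.86 and Rpl5 at 1.94 CPM per kilobase. Rplp1 ran from 224 to 668 CPM over the libraries, highest by set in libraries 9 to 16 and 40 to 48 with a median of 497 CPM and lowest in libraries 17 to 24 and 49 to 58 with a median of 305 CPM, and these sets overlapped.

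Rpl7l1, a paralogue of Rpl7 that works in ribosome assembly, had the narrowest range of the other members, 0.41 log2 units around 35.0 CPM. Rpl36al followed with 0.50, Rpl35a with 0.50, Rpl8 with 0.51, Rps27a, which makes a ubiquitin fusion of a small subunit protein, with 0.51, and Rpl4 with 0.54 log2 units. Rpl4 ran from 465 to 997 CPM.

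Some named pseudogenes were high and steady too. Rpl10-ps3, listed by GENCODE as protein coding and identical to Rpl10 over 740 bases, had the highest median of all genes named -ps at 279 CPM and a range of 0.51 log2 units, against a median of 145 CPM for Rpl10. Rps23-ps1 had 139 CPM and a range of 0.63, against 43.9 CPM for Rps23, and Rps16-ps2 had 76.7 CPM and a range of 0.72, against 58.1 CPM for Rps16. Rpl39-ps had 77.8 CPM against 11.0 CPM for Rpl39. Rpl36a-ps3 had a range of 0.63 log2 units, but matched Rpl36a at only 87.5% of aligned bases, the lowest identity among genes named -ps.

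Near the low-count filter, Rpl30-ps10, Rps15-ps2 and Rps15a-ps7 reached 1 CPM before TMM scaling in 13, 14 and 18 libraries and were kept. Just outside, Rpl10-ps6, Rps10-ps2 and Rpl7a-ps11 reached it in 7, 6 and 5 libraries.

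Of 9 listed paralogues, which encode alternative versions of a ribosomal protein, 7 were in the table and 6 were kept. None of the 6 was separated, beside 3.07% of all kept genes, a share at which so few genes would usually hold none. Rpl22l1 had a median of 56.4 CPM and a range of 0.58 log2 units, Rpl36al 79.2 CPM and 0.50, and Rps27l, a p53 target gene, 24.4 CPM and 0.98. Rps4l, a transcribed processed pseudogene in GENCODE, had 15.7 CPM and a range of 1.68. Rps27rt was the widest with a median of 2.51 CPM and a range of 2.24, and is identical to its parent Rps27 over 341 bases. Rpl3l, a striated muscle paralogue of Rpl3, reached at most 0.725 CPM and was not kept.

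Members together took a median of 1.28% of counts, with no correction for gene length. Copies outside the symbol rule held a further median of 0.221%. Genes named -ps took a median of 0.203% of counts, between 0.0959% in library 69 and 0.533% in library 97, and the other members 1.08%, between 0.777% in library 55 and 2.75% in library 97. Of all member counts, those named -ps held a median of 9.79% in libraries 66 to 75 and 13.2% in libraries 1 to 8 and 34 to 39. In the 6 other sets the median was 15.0% to 16.8%. The highest value in libraries 66 to 75, 10.9%, lay below every library of any other set, whose lowest value was 12.1%.

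Most of the 76 subunit genes lay above their overall medians in libraries 91 to 100 and below them in libraries 1 to 8 and 34 to 39. Neither direction was particular to these libraries. Of 46 large and 30 small subunit genes, 16 and 2 lay above in libraries 1 to 8 and 34 to 39. The numbers were 6 and 3 in libraries 76 to 85, and 15 and 6 in libraries 17 to 24 and 49 to 58. They were 11 and 12 in libraries 25 to 32 and 59 to 65, and 19 and 11 in libraries 66 to 75. Most lay above in libraries 9 to 16 and 40 to 48 (37 and 27) and 86 to 90 (28 and 25). Of the 15839 kept genes, 8047 lay above in libraries 76 to 85 and 8021 in libraries 17 to 24 and 49 to 58. It was 8244 in libraries 25 to 32 and 59 to 65, and 7585 in libraries 66 to 75. In libraries 9 to 16 and 40 to 48 it was 8132, and in libraries 86 to 90 it was 7254. In libraries 91 to 100, 72 of the 76 had a set median above their overall median, beside 45.5% of all kept genes, with a median shift of 0.36 log2 units against -0.04 for all kept genes. Rps25 stood highest there at a shift of 1.24, in libraries where Rps25-ps1 was low, and Rpl30 lowest at -0.25. With copies of at least 50% shared words added, 76 of 76 sums lay above and the median shift was 0.42. In libraries 1 to 8 and 34 to 39, 58 of the 76 lay below, beside 49.7% of all kept genes, with a median shift of -0.17 against 0.00 for all kept genes (0.000969 unrounded). With the same copies added, 76 of 76 sums lay below with a median shift of -0.18.

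Markers of other cells also differed in libraries 91 to 100 and in libraries 1 to 8 and 34 to 39. In libraries 91 to 100 the list of 10 macrophage genes took 0.00697% to 0.281% of counts (median 0.0602%), beside a median of 0.00822% over all libraries. The list of 10 T and B lymphocyte genes took 0.00115% to 0.145% there (median 0.0282%), beside 0.00111% over all. The 15 proliferation genes took 0.00160% to 0.0450%, with a median of 0.00951% beside 0.00253% over all. The fibroblast and stellate list had a median of 0.0710% there beside 0.0277% over all, and the hormone list 14.1% beside 19.7%. Library 97 was highest of all for the macrophage, lymphocyte, proliferation and fibroblast lists and for both classes of members. Library 94 was lowest of the 10 for these 4 lists and had 0.165% of counts in genes named -ps and 0.791% in the other members. After TMM scaling, 71 of 76 subunit genes lay above in libraries 91 to 96 alone, with a median shift of 0.25. This subset was chosen after the data were seen. Within it the macrophage list took 0.0459% and 0.0745% in libraries 91 and 92, and 0.00697% to 0.0287% in libraries 93 to 96. As shares of counts, without TMM scaling, the subunit genes took 1.23% and 1.59% in libraries 91 and 92. They took 0.771% to 0.968% in libraries 93 to 96, below the median of 1.05% over all. The shift in libraries 91 to 96 was not computed without TMM scaling, so whether it holds there was not tested. The acinar list took a median of 12.4% of counts in libraries 91 to 100 and 13.0% in libraries 1 to 8 and 34 to 39, beside 6.47% over all. The part of these cell types in the shifts was not tested.

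**Figure D5:**
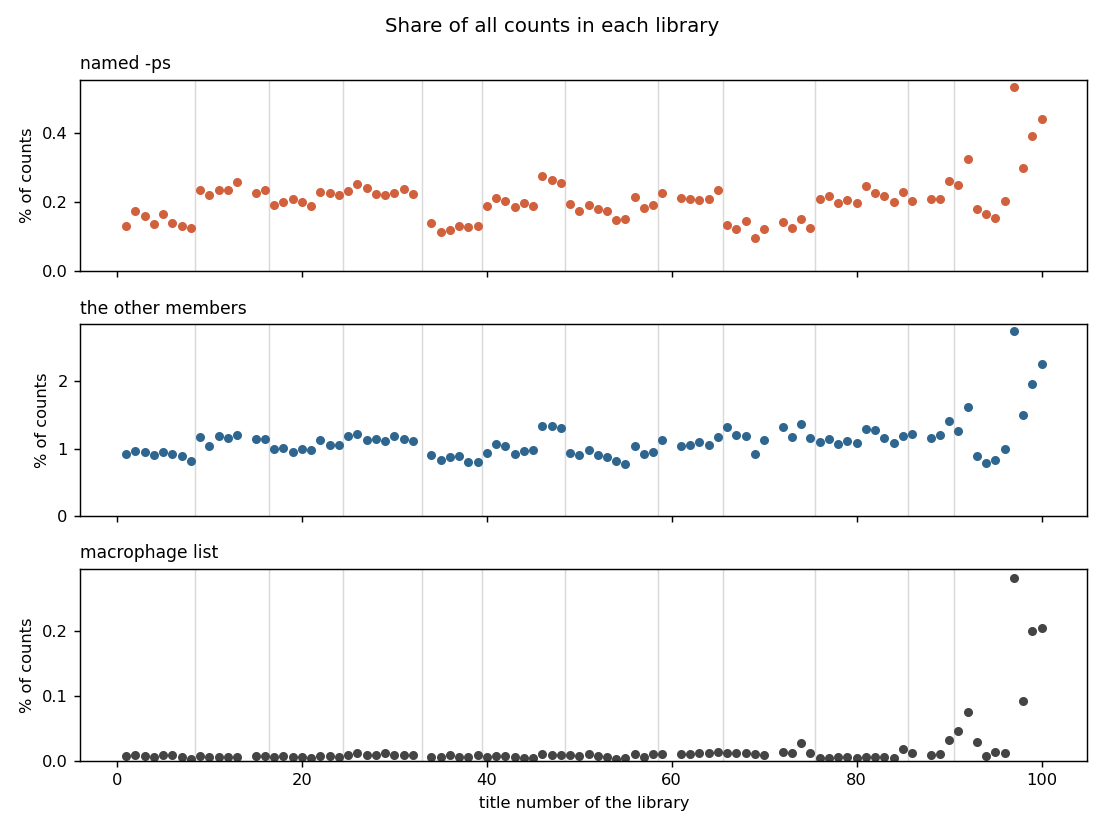
Points give the percentage of a library's counts held by genes named -ps, by the other members and by the macrophage list, against the title number of the library, on linear axes from 0. Library 97 is highest in all 3 panels, and the set medians of genes named -ps are lowest in libraries 66 to 75 (0.126%) and 1 to 8 with 34 to 39 (0.133%).

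Neighbouring parts of the translation machinery had narrower median ranges than the named pseudogenes. Of all kept genes 3.07% were separated, a share at which small lists hold few separated genes or none, so low counts below say little. Of 46 large subunit genes 5 were separated and of 30 small subunit genes 1, with median ranges of 0.84 and 0.79 log2 units, beside 0.92 over all kept genes. Of 18 elongation factors and other mRNAs of the same translational class 1 was separated, Eef1g, a subunit of elongation factor 1, at 17.9 to 236 CPM, and the median range was 0.54. In libraries 91 to 100 all 18 had set medians above their overall medians, and in libraries 1 to 8 and 34 to 39 1 of 18 did. Of 15839 kept genes, 7201 and 7963 did. None of 24 ribosome biogenesis genes was separated, with a median range of 0.64, and Ncl, for nucleolin, was the highest at 21.2 CPM per kilobase. None of 13 regulators was separated, with a median range of 0.49, Mycn being the widest at 1.69. Of 79 genes matching the symbols of mitochondrial ribosomal proteins 1 was separated, Mrps36-ps2, again a named pseudogene, and their median range was 0.51. Of the ribosomal protein genes with other symbols, neither Rpsa nor Fau was separated. Fau, which makes a ubiquitin-like fusion of a small subunit protein, had a range of 2.95 log2 units and Rpsa one of 1.15.

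Ribosomal protein mRNAs classically begin with a 5′ terminal oligopyrimidine tract, through which mTOR signalling controls their translation. A C followed by 4 bases that are C or T was searched on the sense strand at annotated RefSeq start sites (GRCm38.p6). It was found in 13 of the 56 subunit genes in that table (23.2%), against 2.91% of 11221 kept genes and 3.01% of all 27025 genes there. Of the 37 kept genes named -ps, 0 were matched in the table. It was not at the annotated starts of Rps3a1, Rpl9, Rpl19, Rpl27, Rplp0 and Rpl4. Rps6 held it, as shown with 20 bases before the start in lower case and the 5 searched bases in capitals (chr4:86857353-86857387, minus strand).
Rps6: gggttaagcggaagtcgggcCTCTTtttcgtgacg
A start site annotated a few bases off would be missed by this search, and levels were not compared by it.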

How the data were processed

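A count table and a transformed table of 95 islet libraries and 20638 genes were used. The authors deposited estimated counts per gene, and variance-stabilised values on a scale close to log2, which served as an alternative. Per the submitters' processing notes the build was GRCm38 and DESeq2 was used; the aligner, counter, strand setting and annotation release are not given in the sources used here. All libraries were unassigned, so no groups were compared. The labels do not say that each library came from its own animal. The members and lists were chosen with earlier results of these data known.

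Counts were scaled with edgeR 4.0.16 (TMM), giving CPM and log2 CPM with a prior count of 2. The coefficient of variation was the root of edgeR's tagwise dispersion, from counts rounded to whole numbers and an intercept alone. The low-count filter used column sums. DESeq2 1.42.0 size factors and dispersions were alternatives. The separation rule and dispersions were tested on simulated data. Transcripts, biotypes and exon lengths came from GENCODE M21, which matched 20532 genes and all 123 members. Words of 31 bases were compared on the transcribed strand, and a gene with at least 50% of its words in a member counted as its copy. Alignments used Biopython 1.88, and start sites RefSeq GRCm38.p6.

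Named genes followed a fixed rule. Among the other members these were the 8 highest and 4 lowest per kilobase, the 6 widest, the 6 narrowest and all separated ones. Among genes named -ps they were the 10 highest, the 15 with the widest empty stretch and the 4 narrowest. Parents, all paralogues, 3 members on each side of the filter, and the highest, widest and narrowest of each list completed them. Gm genes and members split within a set were named after their values were seen. Total counts per library set the precision, and no interval was computed because the counting could divide reads between genes. Some genes are not reported here.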

Additional observations from a re-analysis of the deposited data

How the results depend on the processing

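The count of separated genes named -ps was 13 in libraries numbered 50 or lower, and between 15 and 22 under the other settings tried. That of the other members was 4 in libraries numbered above 50 and 4 with an empty stretch of 1.5 log2 units, and between 5 and 10 otherwise. The share of all kept genes moved more: 5.28% with a prior count of 0.5, 0.878% on the deposited variance-stabilised values, 9.63% and 1.40% with empty stretches of 0.5 and 1.5, and 1.69% with 10 libraries a side. The median range of genes named -ps was 1.46 on the variance-stabilised values and 3.69 without libraries numbered above 90. Without the low-count filter 70 of 88 genes named -ps and 14 of 89 others exceeded a coefficient of 50%. The share over all unfiltered genes was not counted, so the 70 cannot be read as particular to genes named -ps. Fewer libraries or another threshold entered by construction; other causes were not tested. The median share of counts in members was 1.79% with totals free of the acinar and hormone lists, against 1.28%. Summing each subunit gene with its copies of at least 50% shared words, a setting chosen after seeing the data, gave 0 separated and 2 with ranges above 1. DESeq2 size factors moved no count by over 1.5 times. On column sums the median of all kept genes in libraries 1 to 8 and 34 to 39 shifted by -0.15, beside -0.32 for the subunit genes. No paired analysis was possible because the labels give no groups or replicate numbers. Depth was 16411809 counts or more, and the values of copies that share sequence stay uncertain at any depth.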
